A study of Homo sapiens with 14 samples.

Results

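AP-1 is a family of dimeric transcription factors, and the 10 genes described here encode its subunits: FOS, FOSB, FOSL1, FOSL2, JUN, JUNB, JUND, ATF3, BATF and BATF3. They were chosen by name, with earlier results of these data known, and are 10 of the 20033 protein-coding genes of the annotation. All KLF4 peaks whose summit lay between 10 kb upstream of the gene start and 2 kb past the gene end were assigned to them. The peaks came from KLF4 ChIP-seq in BEAS-2B, an established line of human bronchial epithelial cells, with 1 library in each of 4 groups: wild-type (WT) cells without treatment (WT control), WT cells given 1 µM trivalent arsenic (As3+) for 6 h (WT As3+), cells with a knockout of Nrf2 without treatment (Nrf2 KO control), and Nrf2 knockout cells given the same As3+ treatment (Nrf2 KO As3+). Nrf2 is the factor encoded by NFE2L2, and whether the knockout cells derive from 1 clone is not given in the sources used here. Neither the knockout nor the cell identity can be checked from peak positions, which carry no expression values. With 1 library per group, no difference between libraries has a replicate check and no test was made.

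AP-1 subunits share a basic leucine zipper (bZIP), through which FOS proteins pair with JUN proteins, and JUN proteins also pair with each other or with ATF and BATF proteins. The dimers bind short DNA words, the AP-1 site and the closely related cyclic AMP response element (CRE), and many of the genes are immediate-early genes that are induced quickly and briefly by growth factors, inflammation and stress. KLF4 is a zinc-finger factor of epithelial and stem cells that binds GC-rich and CACCC-like DNA.

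The 4 lists differed greatly in length, with 751 peaks in WT control, 29870 in WT As3+, 76545 in Nrf2 KO control and 130 in Nrf2 KO As3+. Total read numbers were not used here, and the depth behind a peak is given as the number of fragments over its summit, worked out from its fold enrichment and p-value. The median over all peaks was 25 fragments in WT control, 10 in WT As3+, 7 in Nrf2 KO control and 19 in Nrf2 KO As3+. The median background expected at a summit ran in a similar way, at 4.84, 1.35, 0.717 and 3.33 fragments. The contribution of this difference between the libraries to the results below was not tested.

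KLF4 peaks were found at 9 of the 10 AP-1 genes in WT As3+ (36 peaks) and at the same 9 genes in Nrf2 KO control (48 peaks). WT control had 1 peak, at FOSL2, and Nrf2 KO As3+ had none. BATF was the gene without a peak in any library. Among all protein-coding genes, a peak in the same kind of window was present for 2.51% in WT control, 66.5% in WT As3+, 81.0% in Nrf2 KO control and 0.439% in Nrf2 KO As3+. The AP-1 share of 90% in both long lists carries an exact (Clopper-Pearson) 95% interval of 55.5 to 99.7%, which covers counting error only, and includes both background shares. A peak in WT As3+ but not in WT control was seen at 8 AP-1 genes, beside 64.0% of all genes, and a peak in WT As3+ but not in Nrf2 KO As3+ at 9, beside 66.1%. Likewise, 8 AP-1 genes had a peak in Nrf2 KO control but not in WT control (78.5% of all genes), and 9 had one in Nrf2 KO control but not in Nrf2 KO As3+ (80.6%). The 1 AP-1 gene without any peak stands beside 16.5% of all genes. With a window of the same length for every gene, reaching 10 kb up and 2 kb down from the gene start, the AP-1 counts were again 1, 9, 9 and 0, and the shares of all protein-coding genes were 0.963%, 55.3%, 71.1% and 0.22% in WT control, WT As3+, Nrf2 KO control and Nrf2 KO As3+. In that window the interval of 55.5 to 99.7% lay just above the WT As3+ share and included that of Nrf2 KO control.

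**Figure D1:**
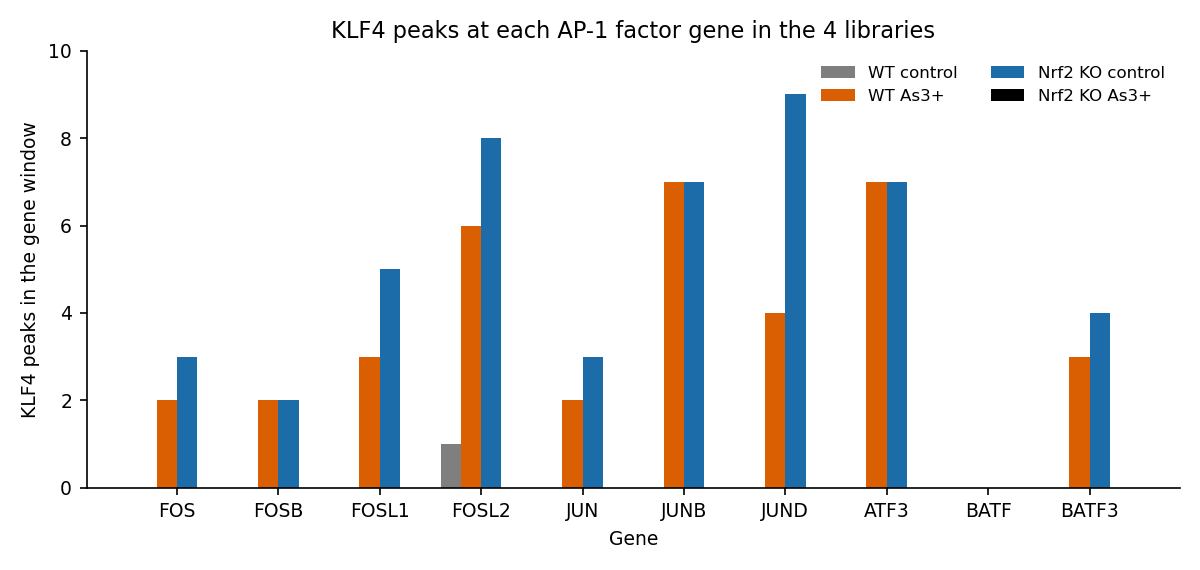
Number of KLF4 peaks (y axis) in the window of each AP-1 gene (x axis), with 1 bar for each library. WT As3+ and Nrf2 KO control have between 2 and 9 peaks at 9 genes, WT control has 1 at FOSL2, Nrf2 KO As3+ has none, and BATF has none in any library.

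The lists were also compared at equal length. When each list was cut to its 751 best peaks by −log10 p (all of WT control), 1 AP-1 peak remained in WT control, 2 in WT As3+ (JUNB and ATF3) and 1 in Nrf2 KO control (FOSL2). With 29870 peaks taken from each of the longer lists, there were 36 in WT As3+ and 28 in Nrf2 KO control, at 9 genes each, so the order of the libraries turned relative to the full lists. Shares of all protein-coding genes were not computed at these cuts, so whether this turn is particular to the AP-1 genes is not known. Of the 36 WT As3+ peaks, 5 had fewer fragments than the lowest number over any WT control summit, which was 10, and 22 of the 48 Nrf2 KO control peaks did. The other 31 and 26 peaks had at least that many fragments. This does not show whether WT control could have listed them, because the backgrounds differed. Over the WT control summits the lowest background was 1.90 fragments and the median 4.84. At the AP-1 summits the background ranged from 0.928 to 2.70 in WT As3+ and from 0.594 to 1.62 in Nrf2 KO control.

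The AP-1 genes stood farther from the background in the promoter, defined as the region within 2 kb of the canonical transcription start site (TSS), which has the same length for every gene. A promoter peak was present at 1, 9, 9 and 0 of the 10 genes in WT control, WT As3+, Nrf2 KO control and Nrf2 KO As3+, beside 0.794%, 52.5%, 67.5% and 0.195% of all protein-coding genes. At least 2 promoter peaks were found at 7 genes in WT As3+ (70%, interval 34.8 to 93.3%), where the background was 18.1%, and at 8 genes in Nrf2 KO control (80%, interval 44.4 to 97.5%), where it was 33.3%. The promoter region takes in the whole of JUNB (1830 bp) and JUND (1929 bp), so peaks in their 3′ UTRs count as promoter peaks. In WT As3+, JUND reaches 2 promoter peaks only with its 3′ UTR peak, 1195 bp downstream of the TSS. In the whole gene window, whose length varies between genes, peaks with −log10 q of 5 or more were present at 9 genes in both lists, beside 38.2% and 51.0%. The intervals of the last 2 measures, at least 2 promoter peaks and a peak of −log10 q of 5 or more, lie above the background in both libraries, and that of a promoter peak does so in WT As3+. A high share with a promoter peak was not particular to the AP-1 genes, since related gene lists described further on had it too. The last 2 measures are not given for those lists. The AP-1 genes are short, with a median length of 7864.5 bp against 27471 bp for all protein-coding genes. Their windows held 1.34 peaks per 10 kb in WT As3+, where all protein-coding windows had 0.193, and 1.79 in Nrf2 KO control, where they had 0.450. Per gene, the mean was 3.6 peaks against 1.56 in WT As3+ and 4.8 against 3.64 in Nrf2 KO control, and in the promoter of fixed length it was 2.2 against 0.755 and 2.8 against 1.16.

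**Figure D2:**
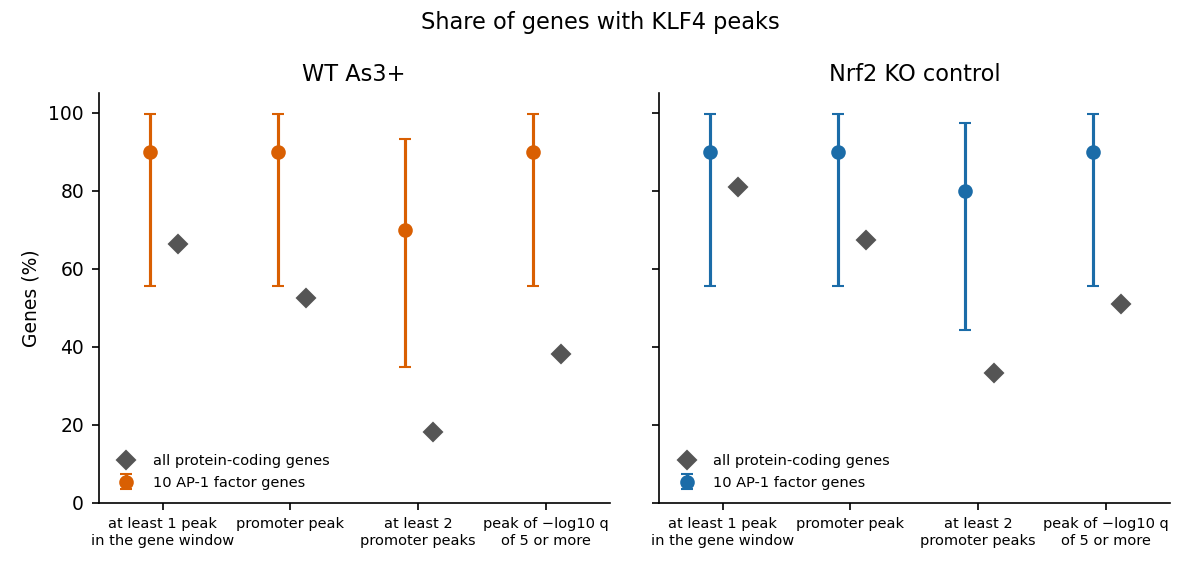
Share of genes (y axis, percent) meeting each of 4 criteria (x axis) in WT As3+ (left) and Nrf2 KO control (right). Circles are the 10 AP-1 genes with exact 95% binomial intervals for counting error, and diamonds are all 20033 protein-coding genes. The diamonds lie below the intervals for at least 2 promoter peaks and for peaks of −log10 q of 5 or more, and for a promoter peak in WT As3+, and inside the other intervals.

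The FOS family genes encode the partners that cannot pair with each other and depend on JUN proteins. FOS (ENSG00000170345, chromosome 14 from 75278826 to 75282230) is the archetypal immediate-early gene. Its WT As3+ peaks lay 1222 bp and 181 bp upstream of the TSS and had fold enrichments of 4.59 and 8.20. The second held 23 fragments over the summit (95% Poisson interval 14.6 to 34.5) and ranked in the top 4.33% of its list. In Nrf2 KO control the peak nearest to the TSS was 138 bp upstream, with a fold enrichment of 7.73 and 16 fragments (9.15 to 26.0), in the top 3.55% of its list. Both promoter peaks of WT As3+ overlapped peaks of Nrf2 KO control, and the latter had a further weak peak in intron 1, 605 bp downstream of the TSS. The FOS promoter summit is shown because it was the highest of the gene in both libraries. Capitals in this and the following sequences mark words from a list of 7, which are named further on, and the FOS stretch held none.
FOS promoter summit (chr14:75278597-75278696, + strand): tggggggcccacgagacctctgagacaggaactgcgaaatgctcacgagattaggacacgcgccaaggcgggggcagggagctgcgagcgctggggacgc

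At FOSB (ENSG00000125740, chromosome 19 from 45467995 to 45475179), which is induced like FOS, the libraries did not share a peak. The WT As3+ peaks were a promoter peak 241 bp upstream of the TSS (fold enrichment 5.51, 13 fragments) and a peak 5542 bp downstream in the 3′ UTR of exon 4. Nrf2 KO control peaks lay 1052 bp and 2159 bp downstream in intron 1, with fold enrichments of 6.00 and 4.60. FOSB was the only 1 of the 9 genes at which no WT As3+ peak overlapped a peak of Nrf2 KO control. The promoter summit is shown because its window held both a CRE word and a CArG box, the binding word of serum response factor (SRF), and the adjoining stretches below carry them.
FOSB promoter, CRE word (chr19:45467645-45467704, + strand): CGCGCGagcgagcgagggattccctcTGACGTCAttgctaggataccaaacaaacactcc
FOSB promoter summit (chr19:45467705-45467804, + strand): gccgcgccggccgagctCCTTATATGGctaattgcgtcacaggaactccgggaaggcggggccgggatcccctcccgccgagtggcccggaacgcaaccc

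FOSL1 (ENSG00000175592, minus strand of chromosome 11 from 65892049 to 65900573) encodes FRA1, a subunit common in transformed epithelial cells. It had 3 WT As3+ peaks of nearly equal height, with fold enrichments of 7.15, 7.12 and 7.05 and 18, 16 and 17 fragments. They lay 2962 bp upstream, 71 bp upstream and 9110 bp downstream of the TSS. All 3 overlapped Nrf2 KO control peaks, which were 3393 bp and 197 bp upstream and 9094 bp downstream, and the downstream summits were closer to the TSS of CCDC85B (605 bp and 621 bp) than to any FOSL1 start. Nrf2 KO control had a further pair in intron 1.

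FOSL2 (ENSG00000075426, chromosome 2 from 28392448 to 28417317) encodes FRA2 and was the only AP-1 gene with peaks in 3 libraries. The WT control peak, from 28392527 to 28392729, had its summit 290 bp upstream of the TSS. The WT As3+ summit at this place was 248 bp upstream, and that of Nrf2 KO control 394 bp upstream. Fold enrichment was 4.36 in WT control, 7.41 in WT As3+ and 10.9 in Nrf2 KO control. The fragments over the summit numbered 19 (11.4 to 29.7), 17 (9.90 to 27.2) and 20 (12.2 to 30.9), so these counts overlapped in their intervals. The background expected at the summit was 3.59, 1.43 and 0.919 fragments. The backgrounds were themselves worked out from the folds and p-values. With fragment counts this close, their order is the reverse of that of the folds by construction and is no separate observation.
FOSL2 promoter, WT control summit (chr2:28392518-28392617, + strand): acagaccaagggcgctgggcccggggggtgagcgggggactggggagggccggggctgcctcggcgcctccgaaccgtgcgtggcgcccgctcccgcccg

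The highest WT As3+ peak of FOSL2 reached a fold enrichment of 9.40 with 21 fragments, in the top 2.21% of its list, at 2137 bp upstream of the TSS. It overlapped a Nrf2 KO control peak with its summit 2206 bp upstream. Peaks farther into the gene, in intron 3 and in the 3′ UTR of exon 4, were also found in both libraries, with summits 94 bp and 44 bp apart. The Nrf2 KO control promoter peak was the highest AP-1 peak of that library and ranked 181st, in the top 0.236% of its list. A peak 5559 bp upstream was present in Nrf2 KO control only, and the stretch with its AP-1 word is given here.
FOSL2 upstream, AP-1 word (chr2:28387193-28387252, + strand): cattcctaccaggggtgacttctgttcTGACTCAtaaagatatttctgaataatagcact

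**Figure D3:**
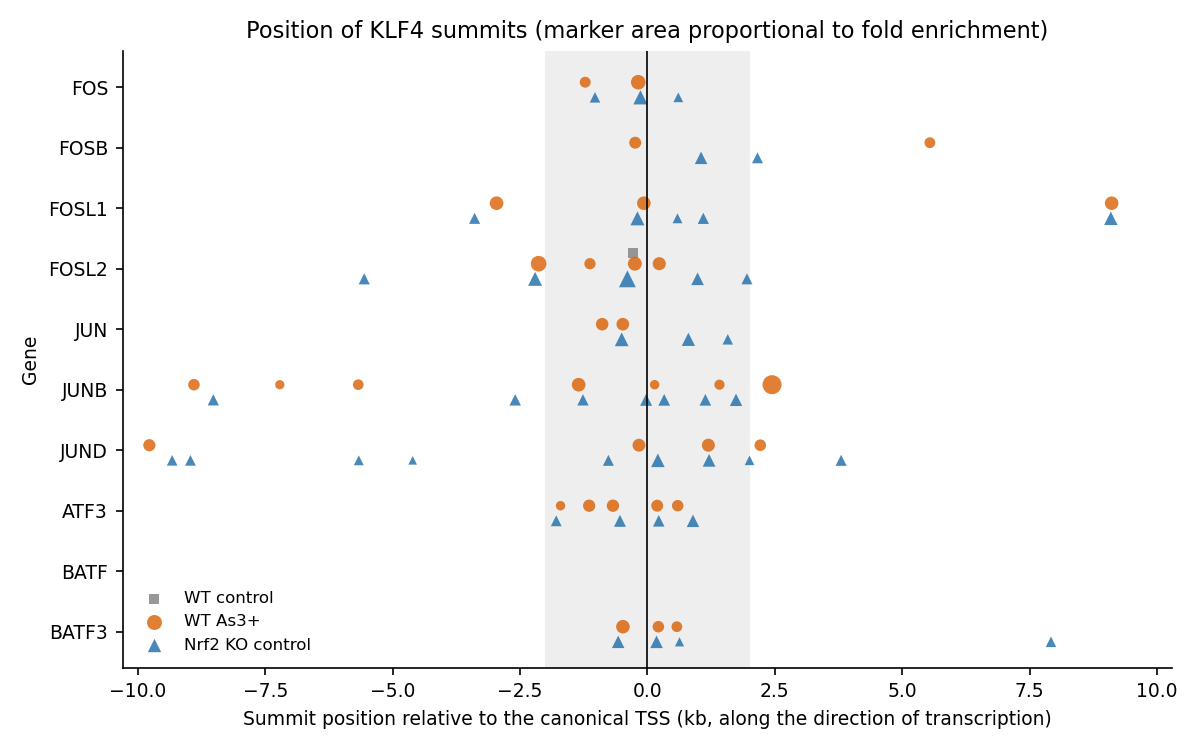
Position of each KLF4 summit (x axis, kb from the canonical TSS, negative upstream) at each AP-1 gene (y axis), with the marker area proportional to fold enrichment and the 2 kb promoter region on each side shaded. Squares are WT control, circles WT As3+ and triangles Nrf2 KO control. Peaks of both libraries gather around the TSS at 9 genes, and 4 WT As3+ and 6 Nrf2 KO control summits more than 10 kb from the TSS are not drawn.

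JUN proteins form dimers among themselves and with FOS proteins. JUN (ENSG00000177606, minus strand of chromosome 1 from 58776845 to 58784048), the founding member, had a pair of WT As3+ peaks 484 bp and 889 bp upstream of the TSS. Their fold enrichments were 6.15 and 6.07, each with 17 fragments (9.90 to 27.2), and both overlapped 1 Nrf2 KO control peak with its summit 506 bp upstream, a fold enrichment of 7.28 and 15 fragments. The nearest start sites were those of the non-coding genes LINC01135 (147 bp) and ENSG00000290013 (1 bp), which lie beside JUN, so these peaks cannot be assigned to JUN alone. Nrf2 KO control had further peaks 803 bp and 1576 bp downstream, in the 5′ UTR and the coding part of the single exon.

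JUNB (ENSG00000171223, chromosome 19 from 12791486 to 12793315) encodes a JUN protein that often restrains growth, and held the highest AP-1 peak of WT As3+. This peak, from 12793428 to 12794257, lay past the gene end with its summit 2445 bp downstream of the TSS. It had a fold enrichment of 13.9 and 31 fragments (21.1 to 44), ranked 100th of its list and so in the top 0.335%. The nearest start site was that of HOOK2, 1349 bp away. Nrf2 KO control had a wide overlapping peak of 1243 bp whose summit was 707 bp nearer to JUNB, in the 3′ UTR, with a fold enrichment of 5.90 and 13 fragments (6.92 to 22.2), in the top 17.6%. The gene had 7 peaks in both libraries, of which 4 in each overlapped a peak of the other. At the TSS itself WT As3+ was low, with a fold enrichment of 3.43 at 140 bp downstream, among the lowest peaks of its list (at 94.9%), whereas the peak 1351 bp upstream reached 7.18. The downstream summit is shown with its KLF word, and the upstream AP-1 word belongs to a Nrf2 KO control peak 8521 bp upstream.
JUNB downstream summit (chr19:12793881-12793980, + strand): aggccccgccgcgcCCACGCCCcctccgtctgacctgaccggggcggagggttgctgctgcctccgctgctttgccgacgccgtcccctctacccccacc
JUNB upstream, AP-1 word (chr19:12783030-12783089, + strand): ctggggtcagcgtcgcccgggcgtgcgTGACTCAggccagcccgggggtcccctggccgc

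JUND (ENSG00000130522, minus strand of chromosome 19 from 18279694 to 18281622) is the JUN gene that most cells express steadily. It differed most in peak number, with 4 peaks in WT As3+ and 9 in Nrf2 KO control, of which 2 in each overlapped a peak of the other. The shared peaks lay 1195 bp (WT As3+) and 1209 bp (Nrf2 KO control) downstream of the TSS, with fold enrichments of 6.50 and 6.23, and past the gene end at 2214 bp and 2003 bp. In WT As3+ the peak nearest to the TSS, 167 bp upstream, held 13 fragments at a fold enrichment of 6.38, and none of the Nrf2 KO control peaks overlapped it. The nearest Nrf2 KO control summits were 204 bp downstream, in the coding exon, and 767 bp upstream. Of the other Nrf2 KO control peaks, 4 between 4608 bp and 9329 bp upstream were low, with 4 to 6 fragments over the summit. The upstream promoter peak is shown with its CRE word.
JUND promoter, CRE word (chr19:18281789-18281848, - strand): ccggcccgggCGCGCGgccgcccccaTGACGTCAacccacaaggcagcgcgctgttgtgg

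ATF3 and the BATF proteins are bZIP partners of JUN. ATF3 (ENSG00000162772, chromosome 1 from 212565334 to 212620777) is induced by many kinds of cellular stress, and its canonical TSS lies 43427 bp into the annotated gene. Its highest WT As3+ peak lay upstream of the whole gene, 49773 bp from the canonical TSS. It held 28 fragments (18.6 to 40.5) at a fold enrichment of 8.86, in the top 2.99% of its list. A Nrf2 KO control peak overlapped it, with its summit 581 bp away, a fold enrichment of 6.23 and 13 fragments (6.92 to 22.2), in the top 12.6%. The nearest start site to both was that of ENSG00000288007, at 375 bp and 956 bp. Around the canonical TSS, WT As3+ had 5 peaks between 1706 bp upstream and 593 bp downstream, with fold enrichments of 3.42 to 5.87, and each overlapped 1 of the 4 Nrf2 KO control peaks of the same region. In all, 6 of 7 WT As3+ peaks overlapped a Nrf2 KO control peak. The upstream summit is shown because it held an AP-1 word in the central 100 bases, and the stretch that follows it holds a CRE word.
ATF3 upstream summit (chr1:212558938-212559037, + strand): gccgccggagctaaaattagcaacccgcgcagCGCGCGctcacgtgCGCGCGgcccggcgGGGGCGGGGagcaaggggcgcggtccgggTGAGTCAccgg
ATF3 upstream, CRE word (chr1:212559038-212559097, + strand): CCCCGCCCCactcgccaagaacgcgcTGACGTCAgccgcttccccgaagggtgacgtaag

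BATF3 (ENSG00000123685, minus strand of chromosome 1 from 212686417 to 212699840), known from dendritic cells, is separated from ATF3 by 65.6 kb. Its WT As3+ peaks lay 482 bp upstream and 214 bp and 577 bp downstream of the TSS, with fold enrichments of 7.09, 5.11 and 4.45. All 3 overlapped Nrf2 KO control peaks, with summits 93 bp, 36 bp and 52 bp apart, and the highest of these had a fold enrichment of 6.09. The promoter summit held a KLF word.
BATF3 promoter summit (chr1:212700272-212700371, - strand): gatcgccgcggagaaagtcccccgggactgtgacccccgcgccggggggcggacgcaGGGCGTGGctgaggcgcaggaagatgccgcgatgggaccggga

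BATF (ENSG00000156127, chromosome 14 from 75522455 to 75546993), a partner of JUN in lymphocytes, lies 240.2 kb past FOS on the same chromosome. The nearest summit to its TSS was 69.2 kb away in WT control, 28.8 kb in WT As3+ and 45.4 kb in Nrf2 KO control. At the other 9 genes the nearest summit of the 2 long lists was between 27 bp and 1052 bp away. In WT control, by contrast, the median distance over the 10 genes was 290.6 kb, and in Nrf2 KO As3+ the nearest summit to any of them was 764.0 kb away, near FOSB.

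**Figure D4:**
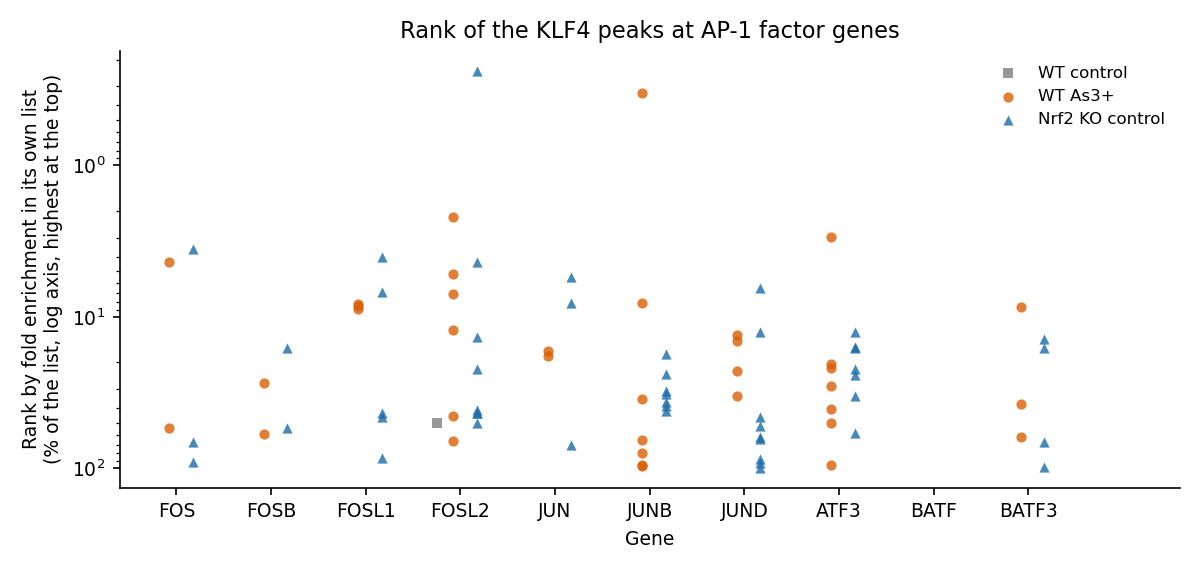
Rank of each AP-1 peak by fold enrichment within its own list (y axis, percent of the list on a log axis, highest peaks at the top) for each gene (x axis). Squares are WT control, circles WT As3+ and triangles Nrf2 KO control. The JUNB downstream peak of WT As3+ (0.335%) and the FOSL2 promoter peak of Nrf2 KO control (0.236%) stand above the rest.

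Fold enrichment depends on the depth and background of a library, so heights were ranked within a list. In WT As3+, 11 of the 36 AP-1 peaks were in the top 10% of the list and 26 in the upper 50%. In Nrf2 KO control these numbers were 8 and 33 of 48. The fragments over a summit ranged from 8 to 31 with a median of 13.5 in WT As3+, and from 4 to 20 with a median of 10 in Nrf2 KO control. Backgrounds at the same summits ranged from 0.928 to 2.70 and from 0.594 to 1.62 fragments.

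**Figure D5:**
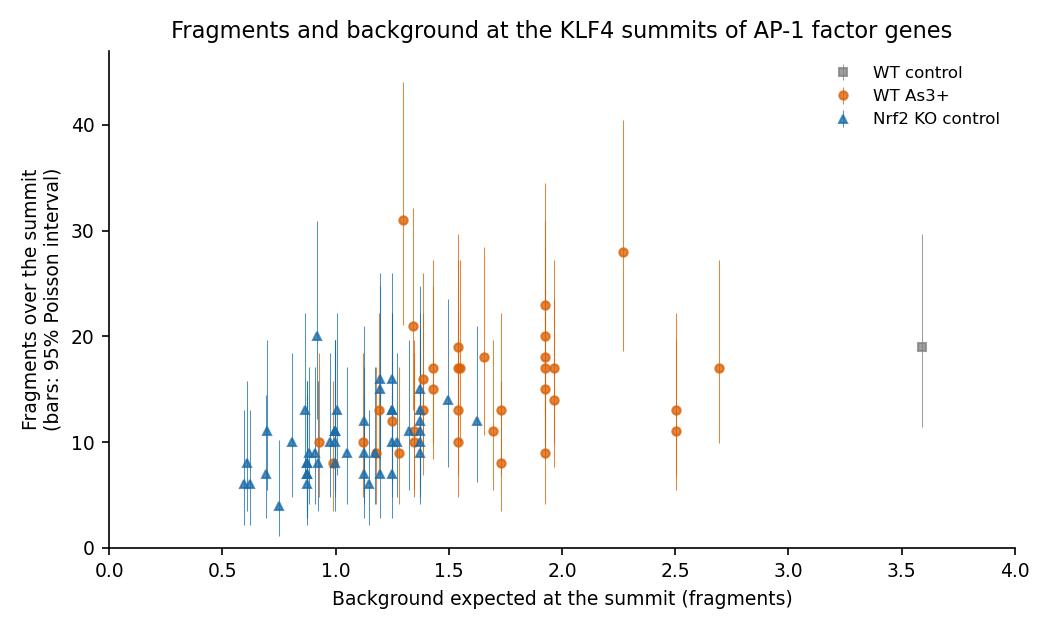
Fragments over the summit (y axis, with exact 95% Poisson intervals for counting error) against the background expected there (x axis, fragments) for the AP-1 peaks. The WT control peak (square) has 19 fragments over the largest background, 3.59, and most triangles of Nrf2 KO control lie to the left of the circles of WT As3+.

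Most AP-1 peaks of WT As3+ were also listed in Nrf2 KO control. An overlap of at least 1 bp was found for 27 of 36 WT As3+ peaks (75.0%, interval 57.8 to 87.9%) and for 24 of 48 Nrf2 KO control peaks (50%, 35.2 to 64.8%). Over the whole lists the shares were 55.6% and 21.7%. Restricted to promoters, 19 of 22 AP-1 peaks (86.4%, 65.1 to 97.1%) and 17 of 28 (60.7%, 40.6 to 78.5%) overlapped, beside 78.8% and 50.5% of all promoter peaks, so promoter peaks of AP-1 genes were shared at about the rate of promoter peaks in general. Summits of the 28 overlapping pairs were 14 to 707 bp apart, with a median of 132 bp. Of the 9 genes with peaks, 6 had more peaks in Nrf2 KO control, 3 had equal numbers and none had more in WT As3+. Over all protein-coding genes the mean was also higher in Nrf2 KO control, at 3.64 peaks per gene against 1.56. Among peaks with −log10 q of 5 or more the order was the other way, with more in WT As3+ at 5 genes, more in Nrf2 KO control at 1 and equal numbers at 3. The whole lists held 9522 such peaks in WT As3+ and 16160 in Nrf2 KO control. How many of all protein-coding genes went each way was not counted, so neither order can be read as particular to the AP-1 genes.

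The side of the TSS on which promoter summits lay was examined after the values were seen, and the intervals of the libraries overlapped. AP-1 summits were placed relative to the canonical TSS of their own gene. All promoter peaks were placed relative to the nearest canonical TSS of any protein-coding gene, so the measures are not quite alike. In WT As3+, 8 of 22 promoter summits (36.4%, interval 17.2 to 59.3%) were downstream of the TSS, against 61.4% of all 13524 promoter peaks of that list, and the median position was 211 bp upstream, against 120 bp downstream for all of them. In Nrf2 KO control, 17 of 28 (60.7%, 40.6 to 78.5%) were downstream, against 61.1% of all promoter peaks, and the median position was 274.5 bp downstream, against 143 bp for all. By annotation of the canonical transcript, 22 of the 36 WT As3+ peaks were upstream of the gene's TSS, 5 in introns, 6 in UTRs, 3 past the gene end and none in coding exons. Nrf2 KO control had 23 upstream, 14 in introns, 4 in UTRs, 3 past the end and 4 in coding exons. For 12 and 17 of the peaks, respectively, the nearest start site belonged to another gene.

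Short DNA words were counted in the 200 bp centred on each summit, on both strands, allowing them to overlap. The AP-1 word (TGAGTCA or TGACTCA) was in 2 of 36 WT As3+ windows (5.56%, interval 0.680 to 18.7%), at FOSL1 71 bp upstream and at the distant ATF3 peak, beside 4.33% of the whole list and 1.90% of promoter peaks. In Nrf2 KO control it was in 2 of 48 windows (4.17%, 0.509 to 14.3%), at FOSL2 and JUNB, beside 2.54% of the list. Nrf2 KO control peaks also span the AP-1 words at FOSL1 and ATF3. Their summits were 126 bp and 581 bp from those of WT As3+, so the words fell outside their windows. The Nrf2 KO control peaks with the word at FOSL2 and JUNB overlapped no WT As3+ peak. AP-1 genes thus held the AP-1 word under KLF4 summits no more often than counting error allows for the whole list.

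The KLF word (CCACACCC or CCACGCCC) was in 4 of 36 WT As3+ windows (11.1%, beside 10.3% of the list) and in 4 of 48 Nrf2 KO control windows (8.33%, beside 9.27%). The WT As3+ windows with it were at FOS, FOSB, JUNB and BATF3. The CRE word (TGACGTCA) was in 3 WT As3+ windows, at the promoters of FOSB and JUND and at the distant ATF3 peak. This share of 8.33% (interval 1.75 to 22.5%) stands beside 0.412% of the list and 0.717% of promoter peaks. No Nrf2 KO control window held the CRE word (0 of 48, interval up to 7.40%), beside 0.225% of the list. The Nrf2 KO control peak at the distant ATF3 site does span the same CRE word. Its summit was 581 bp from that of WT As3+, so the word fell outside its window. The CG run (CGCGCG) was in 9 of 36 windows (25.0%, 12.1 to 42.2%) and in 6 of 48 (12.5%, 4.73 to 25.2%), beside 10.9% and 6.74% of the lists and 18.6% and 16.0% of promoter peaks. The antioxidant response element (ARE, TGACNNNGC), which Nrf2 binds, was in 4 of 36 (11.1%, beside 9.36% of the list) and 8 of 48 (16.7%, 7.48 to 30.2%, beside 9.17%). The GC box (CCCCGCCCC) was in 2 windows of each library (5.56% and 4.17%), beside 7.76% and 4.61% of the lists. The CArG box was in 1 WT As3+ window (2.78%), at FOSB, beside 0.402% of the list, and in no Nrf2 KO control window, beside 0.371%. A word under a summit is a description of the letters and does not show what was bound there.

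The RefSeq promoters (GRCh38.p14, 250 bases before to 50 after the start) matched 9 of the 10 genes. The CRE word was in 1 of these 9, that of JUND, and in 1.85% of all 35116 promoters. The AP-1 word was in 1, that of FOSL2, and in 4.95% of all, the KLF word in none and in 8.05% of all, and the CG run in 3 (FOS, FOSL2 and JUND) and in 16.4% of all.

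Other genes of the pathway, in 4 lists chosen with earlier results of these data known, had KLF4 peaks in the same 2 libraries. Of 20 bZIP partners, such as the small MAF proteins and the Nrf2 relatives, 19 had a peak in WT As3+ and 20 in Nrf2 KO control, 16 and 19 of them at the promoter. NFE2, a relative of Nrf2, had the highest WT As3+ fold enrichment of the list (11.2), followed by MAFG, a small MAF partner of Nrf2 (8.85), and NFE2 and JDP2, an AP-1 repressor, were the members with a WT control peak. Of the 15 kinases and SRF partners that act upstream of AP-1, 12 had a peak in WT As3+ and 15 in Nrf2 KO control, and none in the short lists. The highest in WT As3+ were MAP3K1 (7.27) and MAPK9 (7.17), which belong to the JNK pathway.

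Of 17 other immediate-early genes, 16 had a peak in WT As3+ and 17 in Nrf2 KO control, with a promoter peak at each of them. KLF10 (13.4) and NR4A3 (10.9) had the highest WT As3+ fold enrichments, NR4A1 had a WT control peak, and DUSP1, a phosphatase that switches off MAP kinases, was the only gene of the 4 lists with a Nrf2 KO As3+ peak (4.40). Of 15 known AP-1 target genes, 10 had a peak in WT As3+ and 9 in Nrf2 KO control, and the intermediate filament gene VIM (12.3) and the urokinase gene PLAU (7.95) were highest in WT As3+ and also had WT control peaks. The shares of these lists stand beside the 66.5% and 81.0% of all protein-coding genes given above, and those at the promoter beside 52.5% and 67.5%. In WT As3+ and Nrf2 KO control, promoter peaks were at 16 and 17 of the 17 other immediate-early genes. The numbers were 16 and 19 for the 20 bZIP partners, beside 9 of the 10 AP-1 genes in each library. They were 10 and 14 for the 15 kinases and SRF partners, and lower, 9 and 8, for the 15 known AP-1 target genes. For a peak in WT control and in Nrf2 KO As3+ the shares of all protein-coding genes were 2.51% and 0.439%. Over the 4 libraries, the genes whose highest fold enrichments were nearest to those of JUNB were TMSB10 and TRABD2A, each with 13.8 in WT As3+ and 6.27 in Nrf2 KO control, and THSD8, with 13.9 and 6.40 (Euclidean distances of 0.0763, 0.0763 and 0.102 on the log2(fold + 1) scale). TMSB10 and TRABD2A had the same values, and THSD8 had the WT As3+ value of JUNB itself, as genes whose windows hold the same peak do.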

How the data were processed

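KLF4 ChIP-seq peak lists of 4 BEAS-2B libraries, 1 per group, were analysed; histone-mark and input libraries were not analysed here. Per the labels, the authors aligned 75-nt reads to GRCh38/hg38 with BWA, and the processing notes name bcl2fastq 2.17; the peak caller is not given in the sources used here. The deposited lists hold, per peak, a fold ratio over background, −log10 p and −log10 q values and a score, called separately in each library. Peaks of chromosomes 1 to 22, X and Y were assigned by summit to GENCODE 44 genes. Fragments n and background λ were solved from fold = (n + 1)/(λ + 1) and an upper Poisson tail (largest misfit 0.000405 in −log10 p), and the steps were tested on simulated data. Shares carry exact binomial and counts exact Poisson 95% intervals for counting error. Members, gene lists and words were chosen with earlier results of these data known. Text names all 10 members, the 2 highest of each pathway list with any in the short lists, the 3 genes most like JUNB, and neighbouring start sites; sequences were read from hg38 with pysam 0.24.0 (100 bases at the highest WT As3+ summit, 60 around AP-1 or CRE words, the latter chosen after values were seen).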

Additional observations from a re-analysis of the deposited data

Results flagged for a closer look

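The As3+ library and the control library differed in opposite directions in the 2 genotypes. In WT, the number of AP-1 genes with a KLF4 peak was larger by 8 in As3+ than in control, whereas in Nrf2 KO it was −9 (As3+ minus control). For peaks at these genes the difference was 35 in WT and −48 in Nrf2 KO, and for genes with a promoter peak it was 8 and −9. Each value comes from 1 library per group, so the difference between the genotypes was not tested, and the whole lists differed in length in the same directions. The shares of all protein-coding genes did so too. From control to As3+, those with a peak went from 2.51% to 66.5% in WT and from 81.0% to 0.439% in Nrf2 KO. Those with a promoter peak went from 0.794% to 52.5% and from 67.5% to 0.195%.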

How the results depend on the processing

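The 18 counts of AP-1 genes, of their peaks and of the AP-1 and KLF words were recomputed under the settings that apply to each, 16 in all. Of the 114 values, 84 stayed within 1.5 times the reported count. These include every value of Nrf2 KO As3+, where 0 was set against 0, and cuts that kept a whole list. A stricter cut could not have changed the former, nor the cuts that kept a whole list the latter, so the 84 overstate the stability of the counts. Counts of the other words, among them the CRE word, were not recomputed. With −log10 q of at least 5, the WT control gene, peak and promoter counts became 0, the peaks numbered 23 in WT As3+ and 18 in Nrf2 KO control, and the overlapping peaks 15 and 12. Under this setting the KLF word was in 2 WT As3+ windows and 1 Nrf2 KO control window, and the AP-1 word in 0 of the latter. Keeping as many strongest peaks as the shortest list holds (130) left 0 genes and 0 peaks in every list. With 751 peaks, 2 genes and 2 peaks were left in WT As3+ and 1 gene and 1 peak in Nrf2 KO control. With 29870 peaks, Nrf2 KO control had 28. Background shares at these cuts were not computed. Summits at most 150 bp apart were found for 16 WT As3+ peaks. In windows of 100 bp the AP-1 word was in 1 WT As3+ and 0 Nrf2 KO control windows and the KLF word in 2 and 0. In windows of 400 bp the numbers for Nrf2 KO control were 5 (AP-1) and 7 (KLF). With any base at N in CCACNCCC, 8 WT As3+ and 9 Nrf2 KO control windows held the KLF word. Over all annotated genes, the background shares were 1.42%, 36.5%, 51.0% and 0.23% in WT control, WT As3+, Nrf2 KO control and Nrf2 KO As3+. In windows of equal length for every gene they were 0.963%, 55.3%, 71.1% and 0.22%. The causes of these shifts, other than the fewer peaks or bases counted, were not tested. No paired analysis was possible because each group had 1 KLF4 library and no result came from a test. Among the limits are 1 library per group, lists of very unequal length, and few fragments over a summit, 4 to 31 at AP-1 genes.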
